A study of Mus musculus with 8 samples.

Results

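The Gimap family (GTPases of immunity-associated proteins) comprises 8 genes here, Gimap1, Gimap3, Gimap4, Gimap5, Gimap6, Gimap7, Gimap8 and Gimap9, out of 55335 genes in the deposited tables. They were taken by gene symbol, with all annotated transcripts of a gene summed. The rule uses no measured value, but the family was picked for study with earlier results of these data known. All 8 are in a single cluster on mouse chromosome 6, from 48647234 to 48770851 on GRCm38, a span of 123.6 kb with 6 genes on the plus strand and 2, Gimap3 and Gimap6, on the minus strand.

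Gimap proteins are small GTP-binding proteins related to septins and dynamins, and several are anchored in the membranes of lysosomes, mitochondria, the endoplasmic reticulum or the Golgi. They are expressed mainly in lymphocytes, where loss of single members shortens the survival of resting T cells. Rats and mice that lack working Gimap5 lose most of their peripheral T cells.

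The study compared CD8 T cells sorted from B16 melanoma tumours of C57BL/6 wild-type mice (WT) with those of mice of the same background labelled as CD36 knockout (CD36_KO). Tumour cells, a mouse melanoma line, were given into a vein, and tumours were taken 14 days later. Cd36 encodes a receptor for fatty acids and oxidised lipids. Total RNA was sequenced, and the sample titles give 4 lanes of 1 library per genotype. The sources used here give neither the number of animals per library nor the sorting gates nor the deleted exons. The lanes are repeated reads of 1 preparation, so they were summed and no p-value is given. The 95% intervals cover counting error only. SDs over 4 lanes cover that and, for TPM, changes in how reads were divided among transcripts. Neither covers differences between animals or preparations. Since reads carry no molecular identifiers, copies made by PCR can make both intervals and SDs too narrow.

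The WT library held 10071960 estimated counts and the CD36_KO library 10363391, from 2497048 to 2611740 per lane. Cd36 itself had 1194 counts in the WT and 358 in the CD36_KO library, 25.4% of the WT level after scaling. The defining CD8 T cell genes were present in both libraries, but markers of other cells were abundant. The summed level of 12 T cell genes was 147 to 163 TPM (transcripts per 1000000, a level per transcript length) over the WT lanes, against 1856 to 1972 TPM for 12 macrophage genes and 1006 to 1078 TPM for 10 melanoma genes. In bulk RNA such as this, fewer cells of a type and less RNA per cell cannot be told apart.

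All 8 Gimap genes were higher in the CD36_KO library, by 1.03 (Gimap9) to 1.98 (Gimap7) on the log2 scale. Ratios are of counts per 1000000 (CPM) after TMM scaling between libraries, CD36_KO over WT. A gene counted as measured with a mean of at least 5 CPM, and as higher or lower where the CD36_KO and WT libraries differed by a log2 ratio of 1 or more, up or down, and the interval left out 0. All 8 were measured and all 8 were higher, against 6.5% of the 12177 measured genes. The median log2 ratio of the 8 was 1.60, against -0.13 over all measured genes. In all 8, each CD36_KO lane was above each WT lane in scaled CPM, as was the case for 19.6% of measured genes. In 0 of the 8 were all CD36_KO lanes below all WT lanes, against 33.3%.

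Summed over the family, 1821 counts in the WT library stood against 6768 in the CD36_KO library, a log2 ratio of 1.66 (95% interval 1.58 to 1.73) or 3.15-fold (2.99 to 3.32). The summed level (mean ± SD over the 4 lanes) was 56.2 ± 1.72 TPM for WT and 257.8 ± 8.97 TPM for CD36_KO. The WT lanes ranged from 54.3 to 58.2 TPM and the CD36_KO lanes from 248.2 to 266 TPM, so the groups were far apart. By log2(TPM + 1), 8 of 8 Gimap genes had a ratio of at least 1, against 12.3% of measured genes, and 0 of 8 a ratio of -1 or less, against 2.7%. The median Gimap ratio on that scale was larger, at 2.06, where the median of all measured genes also moved up, to 0.37. Relative to the median of all genes, the Gimap median was 1.74 in scaled CPM and 1.69 in TPM.

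**Figure D1:**
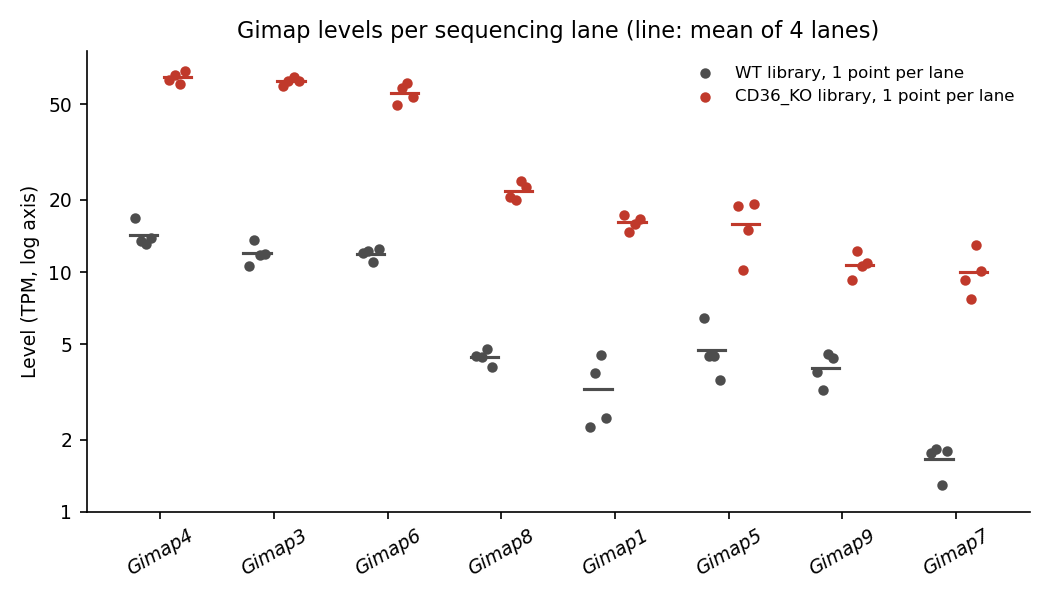
Level of each Gimap gene in TPM (log axis) in each of the 4 lanes of the WT library (grey) and the CD36_KO library (red), with a line at the mean of the lanes. Gimap4, Gimap3 and Gimap6 are highest in both libraries, and for each gene the lanes of the libraries do not overlap. The share of all measured genes without such overlap was not examined in TPM.

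Gimap3 and Gimap5 are the closest relatives in the family. Their coding sequences were identical at 809 of 895 aligned bases (90.4%), or 87.6% of the longer one, and the next pair by that measure, Gimap7 and Gimap9, reached 65.1%. A stretch of 140 bases, from the coding exons of both genes, shows why reads of the pair can be hard to assign, since it is the same in each. It lies at chr6:48765681-48765820 on the minus strand in exon 2 of Gimap3 and at chr6:48752684-48752823 on the plus strand in exon 3 of Gimap5 (GRCm38, transcripts Gimap3-201 and Gimap5-201 of GENCODE M21).
Gimap3 and Gimap5, shared stretch: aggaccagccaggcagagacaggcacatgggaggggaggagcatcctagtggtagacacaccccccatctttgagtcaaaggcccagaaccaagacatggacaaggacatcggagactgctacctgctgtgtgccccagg

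Further along the same exons the genes part. In a window of 90 bases, 16 bases differ, shown in capitals, and nearly all of them fall at its 3′ end. The window is chr6:48765186-48765275 on the minus strand for Gimap3 and chr6:48753229-48753318 on the plus strand for Gimap5. Reads over such positions can tell the genes apart.
Gimap3: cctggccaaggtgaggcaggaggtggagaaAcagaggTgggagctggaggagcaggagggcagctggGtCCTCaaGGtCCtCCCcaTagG
Gimap5: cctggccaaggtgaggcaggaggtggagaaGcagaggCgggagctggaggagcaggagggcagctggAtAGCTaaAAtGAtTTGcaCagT

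Gimap3 (ENSMUSG00000039264.9, chr6:48764464-48770851, minus strand) encodes a protein that acts in T cell survival and sits in membranes of mitochondria and the endoplasmic reticulum. It had 110, 131, 116 and 115 counts in WT lanes 1 to 4 and 471, 496, 510 and 488 in CD36_KO lanes 1 to 4. The lowest CD36_KO lane was far above the highest WT lane. Its log2 ratio was 1.82 (1.68 to 1.97), on 471 and 1964 summed counts. Levels were 12 ± 1.24 TPM in the WT and 62.6 ± 2.28 TPM in the CD36_KO library.

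Gimap5 (ENSMUSG00000043505.8, chr6:48746197-48754210, plus strand) encodes a lysosomal membrane protein needed for the upkeep of peripheral T cells. Its counts were 32, 24, 24 and 27 in the WT lanes and 97, 66, 84 and 81 in the CD36_KO lanes. The lanes did not overlap, although CD36_KO lane 2 was well below lane 1. The log2 ratio was 1.38 (1.06 to 1.71), the second lowest of the family. Levels were 4.73 ± 1.21 TPM in the WT and 15.8 ± 4.21 TPM in the CD36_KO library.

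How far counting could mix these genes was measured by the 31-base words of their annotated transcripts. Of the words of Gimap3, 15.0% also occur in another gene and 13.2% in Gimap5, and of those of Gimap5 10.3% occur elsewhere and 8.02% in Gimap3. Estimated counts were whole numbers, within 0.01, in 1 of 8 lanes for Gimap3 and in 0 of 8 for Gimap5, so counts were divided by estimation. Added together, which does not depend on how reads were divided between them, Gimap3 and Gimap5 had 578 and 2292 counts and a log2 ratio of 1.75 (1.62 to 1.88).

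Gimap1 (ENSMUSG00000090019.5, chr6:48739054-48743795, plus strand) encodes a Golgi-associated member that mature B and T cells require. It had 16, 20, 25 and 16 counts in the WT lanes and 68, 65, 66 and 68 in the CD36_KO lanes. The CD36_KO lanes were nearly level and all above the WT lanes. The log2 ratio was 1.56 (1.19 to 1.94), and levels were 3.24 ± 1.07 and 16.1 ± 1.11 TPM. By words shared with other genes, its counts are the least certain of the family. The antisense gene Gimap1os overlaps it and holds 33.9% of its words, and 38.2% occur in some other gene. The sources used here do not give the strand setting of the counting, so reads in the part that Gimap1 and its antisense partner share cannot be told apart. Gimap1os had 30 and 128 counts (log2 ratio 1.86, 1.27 to 2.48), and the pair together had 107 and 395 (1.65, 1.33 to 1.97).

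Gimap4 and Gimap6 are among the most abundant members in both libraries. Gimap4 (ENSMUSG00000054435.16, chr6:48684549-48692060, plus strand) encodes a GTPase that speeds the death of T cells once apoptosis has begun. Its counts were 135, 106, 109 and 113 in the WT lanes and 413, 417, 379 and 439 in the CD36_KO lanes, with a wide gap between the libraries. The log2 ratio was 1.59 (1.44 to 1.75) and levels were 14.3 ± 1.75 and 64.8 ± 3.29 TPM. No 31-base word of Gimap4 occurs in another gene (0%) and its counts were whole in 8 of 8 lanes, so its values do not depend on dividing reads between genes.

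Gimap6 (ENSMUSG00000047867.11, chr6:48701582-48708225, minus strand) encodes a protein that binds Gabarapl2 and takes part in autophagy. It had 85, 72, 87 and 88 counts in the WT lanes and 289, 317, 295 and 299 in the CD36_KO lanes, again without overlap. The log2 ratio was 1.61 (1.43 to 1.79) and levels were 11.9 ± 0.661 and 56.0 ± 5.15 TPM. Its ratio and that of Gimap4 have intervals that overlap almost fully. Of its words 1.42% occur in other genes, and its counts were whole in 0 of 8 lanes.

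Gimap7 and Gimap9 are neighbours by sequence but had the highest and the lowest ratio. Gimap7 (ENSMUSG00000043931.10, chr6:48718621-48724636, plus strand) encodes a member that pairs with other Gimap proteins and promotes their GTP hydrolysis. It was the least abundant, with 10, 10, 7 and 9 counts in the WT lanes and 40, 33, 51 and 43 in the CD36_KO lanes. The lanes were apart, on few counts. The log2 ratio of 1.98 has the widest interval of the family, 1.45 to 2.54, and levels were 1.67 ± 0.248 and 9.99 ± 2.20 TPM. It shares 2.20% of its words with 1 other gene, Gm28053, and its counts were whole in 8 of 8 lanes.

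Gimap9 (ENSMUSG00000051124.6, chr6:48676129-48679114, plus strand) had 22, 14, 24 and 24 counts in the WT lanes and 46, 55, 52 and 49 in the CD36_KO lanes. The groups did not overlap, but the log2 ratio was the smallest of the family, 1.03 (0.65 to 1.41), with levels of 3.99 ± 0.598 and 10.7 ± 1.20 TPM. It fell under the 2-fold threshold without WT lane 2 (0.94) and without CD36_KO lane 2 (0.99). Its interval lies below those of Gimap3, Gimap4, Gimap6, Gimap7 and Gimap8. No word of Gimap9 is shared with another gene (0%), and its counts were whole in 8 of 8 lanes.

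Gimap8 (ENSMUSG00000064262.7, chr6:48647234-48660875, plus strand) is the longest member, with a coding sequence of 2064 bases against 873 to 984 for the others, and carries several GTPase domains in 1 protein. Its counts were 71, 62, 65 and 52 in the WT lanes and 241, 230, 272 and 250 in the CD36_KO lanes. All CD36_KO lanes were above all WT lanes. Of its words 1.30% occur in other genes, and counts were whole in 5 of 8 lanes. The log2 ratio was 1.75 (1.55 to 1.96) and levels were 4.42 ± 0.314 and 21.8 ± 1.86 TPM.

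The order of levels was similar in both libraries. In the WT library, Gimap4, Gimap3 and Gimap6 overlapped over lanes, and a gap separated them from Gimap5, Gimap8, Gimap9 and Gimap1, each of which overlapped with the next. Gimap7 was below all others. In the CD36_KO library, Gimap4, Gimap3 and Gimap6 again led and overlapped, Gimap8 was below them and above Gimap1, and Gimap1, Gimap5, Gimap9 and Gimap7 each overlapped with the next. As a share of the summed Gimap level, Gimap9 made up 7.12 ± 1.23% in the WT and 4.16 ± 0.474% in the CD36_KO library. In TPM it was the 1 member of 8 whose share did not overlap between the libraries' lanes, at 5.67% to 8.23% against 3.73% to 4.83%. TPM depends on how counts were divided among transcripts of unlike length. Gimap9-202, of 663 bases, held 12.8% of the Gimap9 counts in the WT and 3.30% in the CD36_KO library, and 1.06 of 3.99 TPM in the WT. Gimap9 counts per count of the 12 T cell genes, given below, overlapped over the lanes. Overlap of such shares was not examined over all genes.

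**Figure D2:**
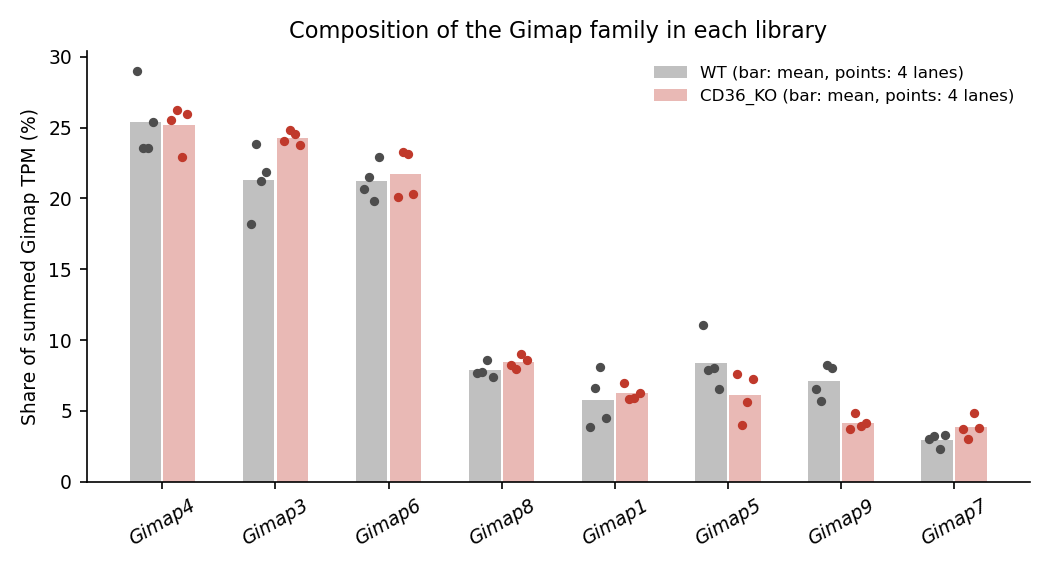
Share of the summed Gimap TPM held by each gene, as the mean (bar) and the 4 lanes (points) of the WT (grey) and CD36_KO (red) libraries. The shares overlap between libraries for every gene but Gimap9, which went from 7.12% to 4.16%.

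Annotated transcripts of a gene share most of their sequence, so their estimates are less certain than those of genes. Nearly all Gimap4 counts fell on Gimap4-202, with 93.8% in the WT and 95.7% in the CD36_KO library. Gimap3 counts were split between Gimap3-202, with 78.0% and 65.9%, and Gimap3-201, with 22.1% and 34.1%. Gimap9-201 held 87.2% and 96.7%. Transcripts not annotated as coding held 50.6% and 49.2% of the Gimap5 counts, of which the intron-retaining Gimap5-204 alone had 32.4% and 39.2%. For Gimap1 that share was 21.8% and 23.8%, and for Gimap7 13.9% and 13.8%, so it differed little between the libraries in these 3 genes.

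The Gimap ratios were close to those of T cell genes, though not of these alone. All 12 of 12 T cell markers were higher, with a median log2 ratio of 1.84, from Cd2 (1.20) to Cd3g (2.26). Cd8a, a chain of the CD8 co-receptor, was at 1.91 and Lck, the kinase bound to it, at 1.60. Their summed level was 147 to 163 TPM over the WT lanes and 714 to 783 TPM over the CD36_KO lanes, and no marker was at 0 in either library. Gimap counts were then set against T cell list counts within each library, a ratio that no scaling between libraries changes. There were 57.7 Gimap counts per 100 T cell counts in the WT and 55.2 in the CD36_KO library, 0.957-fold (0.897 to 1.02). The WT lanes ranged from 56.2 to 59.9 and the CD36_KO lanes from 52.6 to 57.4, so they overlapped.

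By member, the interval of this fold held 1 for 6 of 8 genes, was below 1 for 2 and above 1 for 0. The share of all measured genes in each of these classes was not examined. The summed T cell list had a log2 ratio of 1.72, against a median of -0.13 over all measured genes. A gene at that median therefore has a fold below 1 on this measure. Gimap9 was at 0.619 (0.479 to 0.801) and Gimap5 at 0.789 (0.632 to 0.985). Gimap9 counts per 100 T cell counts were 1.79 to 3.08 over the WT lanes and 1.46 to 1.83 over the CD36_KO lanes, which overlapped slightly. For Gimap5 they were 3.08 to 3.95 and 2.21 to 3.06, which nearly touched. Gimap3 was at 1.07 (0.964 to 1.20), Gimap8 at 1.02 (0.885 to 1.18), Gimap6 at 0.927 (0.816 to 1.05), Gimap4 at 0.916 (0.821 to 1.02), Gimap1 at 0.893 (0.691 to 1.15) and Gimap7 at 1.19 (0.831 to 1.72). An interval that holds 1 does not show that a gene followed the T cell genes exactly.

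**Figure D3:**
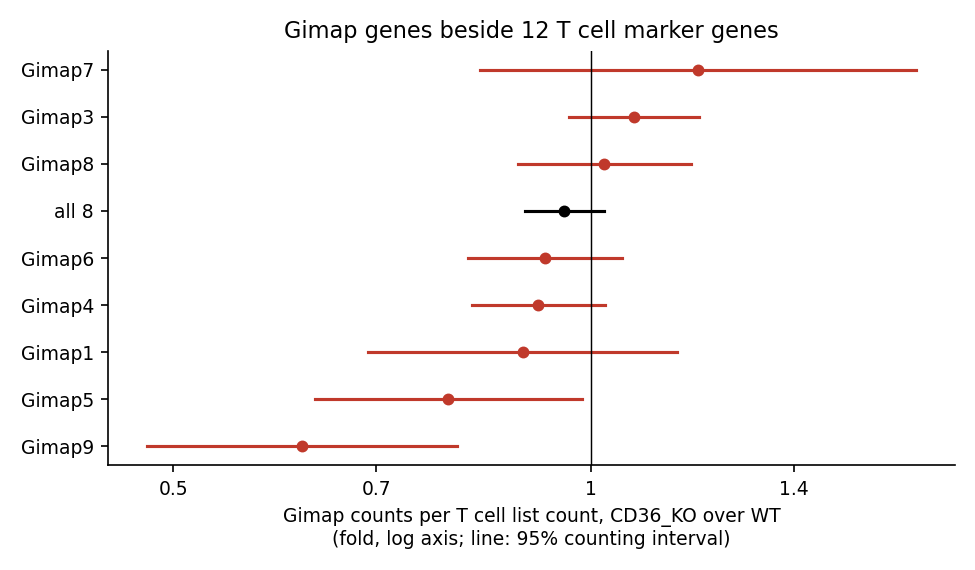
Gimap counts per summed count of 12 T cell marker genes, CD36_KO over WT (log axis), with 95% counting intervals, for each gene (red) and the sum of all 8 (black). The sum lies at 0.957, and Gimap5 and Gimap9 lie below 1 with their intervals.

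Markers of other cells that can express Gimap genes moved as well, and beyond the ratios given here their part in the result was not tested. Of 10 B cell genes, 9 were measured and 8 of those were higher (median 2.39), with a summed level of 22.4 to 23.3 TPM in the WT and 109.8 to 115.9 TPM in the CD36_KO lanes. Gimap counts per B cell list count were 0.956-fold (0.869 to 1.05). Of 8 NK cell genes, 2 were measured, Gzma (2.83) and Klre1 (1.29), both higher. That list summed to 4.73 to 7.84 TPM in the WT and 42.1 to 47.4 TPM in the CD36_KO lanes, and Gimap counts per NK list count were 0.786-fold (0.647 to 0.955). Gzma, which cytotoxic T cells also express, held 43 of the 132 WT and 360 of the 624 CD36_KO counts of that list, and without it the ratio was 1.25-fold (0.98 to 1.60). No B cell or NK cell marker was at 0.

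Naive and quiescent T cells are known for high Gimap expression. Of 14 such genes 9 were higher, 0 lower and 5 between the thresholds, with a median of 1.17. Those higher included Lef1 (1.98) and Tcf7 (1.51), while Klf2 was at 0.16 and Btg1, the most abundant, at 0.78. The list summed to 243.6 to 264.8 TPM in the WT and 755.4 to 778.6 TPM in the CD36_KO lanes. Gimap counts per count of this list were 1.51-fold (1.43 to 1.60), so the Gimap sum was more raised than the list's. Genes under the threshold weigh on that list sum. Btg1 held 2769 of 11454 WT and 5618 of 28207 CD36_KO list counts, and Klf2 1212 and 1602. The fold without such genes was not computed. By log2(TPM + 1), 11 of the 14 genes had a ratio of at least 1, against 12.3% of measured genes, with a median of 1.83. Endothelial cells also express Gimap genes. Of 12 endothelial genes 11 were measured and 0 of those passed the threshold in either direction (median 0.34; 1 of 11, Pecam1, by log2(TPM + 1)), and Gimap counts per endothelial list count were 2.51-fold (2.35 to 2.68).

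The lists of other cells went in both directions. All 8 of 8 hepatocyte genes were higher (median 2.78, Alb 2.72), as were 5 of 5 measured neutrophil genes (median 1.87), and 2 of 3 measured platelet genes. The third, Pf4, the most abundant platelet marker, was lower at -1.01 (339 and 199 counts). All 10 of 10 melanoma genes were lower (median -2.33), against 10.8% of measured genes, and of 12 macrophage genes 2 were lower and 10 between the thresholds (median -0.34). By log2(TPM + 1) the melanoma calls were again 10 of 10 lower, but 0 of 12 macrophage genes and 0 of 3 platelet genes were, and the macrophage median was 0.18. Of 5 CD4 T cell genes 2 were measured, and 0 of 2 passed (Cd4 0.25), although Cd4 reached 1.14 by log2(TPM + 1). Of 6 measured dendritic cell genes 0 passed (median -0.14, and 0.19 by log2(TPM + 1)). No marker of these lists was at 0 in either library, and their part in the Gimap ratios was not tested.

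**Figure D4:**
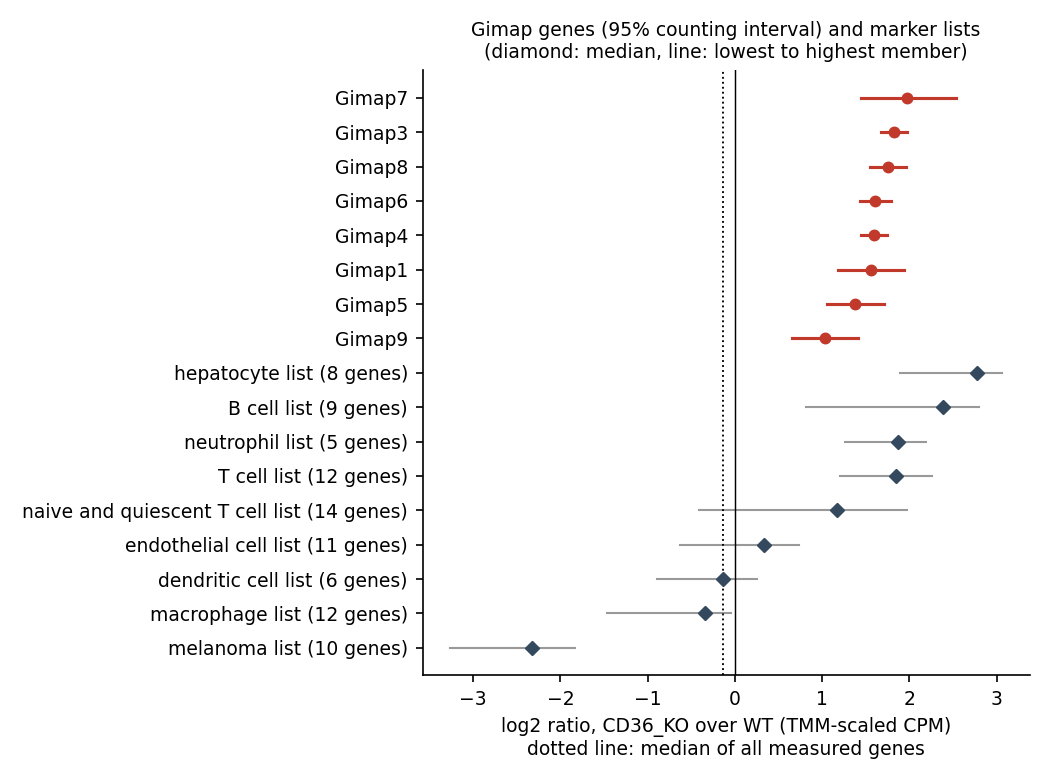
log2 ratio, CD36_KO over WT, of the 8 Gimap genes with 95% counting intervals (red) and of marker lists with at least 5 measured genes (diamond: median, grey line: lowest to highest member). The dotted line is the median of all measured genes, -0.13, and the Gimap genes at 1.03 to 1.98 lie near the T cell list at 1.84 and the neutrophil list at 1.87.

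Within 120 kb on either side of the cluster, 6 coding genes were measured and 0 of 6 were higher, which is near the 6.5% of all measured genes. Of the other annotated genes between Gimap8 and Gimap3, the antisense gene Gimap1os and the long non-coding gene Gm44226 (29 and 81 counts, 1.24, 0.62 to 1.91) were measured and higher, though the lanes of Gm44226 overlapped. Gm28053, annotated from the start of Gimap7 into Gimap5 and sharing sequence with both, had 8 and 21 counts, 4833403J16Rik had 13 and 35, and neither was measured. The pseudogene Gm44262 had 0 counts in both.

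Outside, the nearest measured coding gene beyond Gimap3, on the side of its 5′ end, is Tmem176b, 63.0 kb away, which encodes a membrane ion channel protein of myeloid cells. It had 687 and 383 counts and was lower, at -1.08 (-1.26 to -0.90). Next to it, Tmem176a was at -0.74 (-0.96 to -0.51). On the other side, the nearest coding genes AI854703 (1 and 8 counts) and Zfp775 (46 and 33 counts) were not measured. Repin1, a zinc finger gene 48.1 kb away, was lower at -1.25 (-1.69 to -0.82), and Atp6v0e2, a subunit gene of the vacuolar proton pump, at -2.07 (-2.44 to -1.70). Lrrc61 at -0.33 and Rarres2 at 0.15 had intervals that held 0. Over all measured genes, 10.8% were lower. By log2(TPM + 1) none of the calls of lower neighbours held, with Tmem176b at -0.48, Repin1 at -0.66 and Atp6v0e2 at -0.96.

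**Figure D5:**
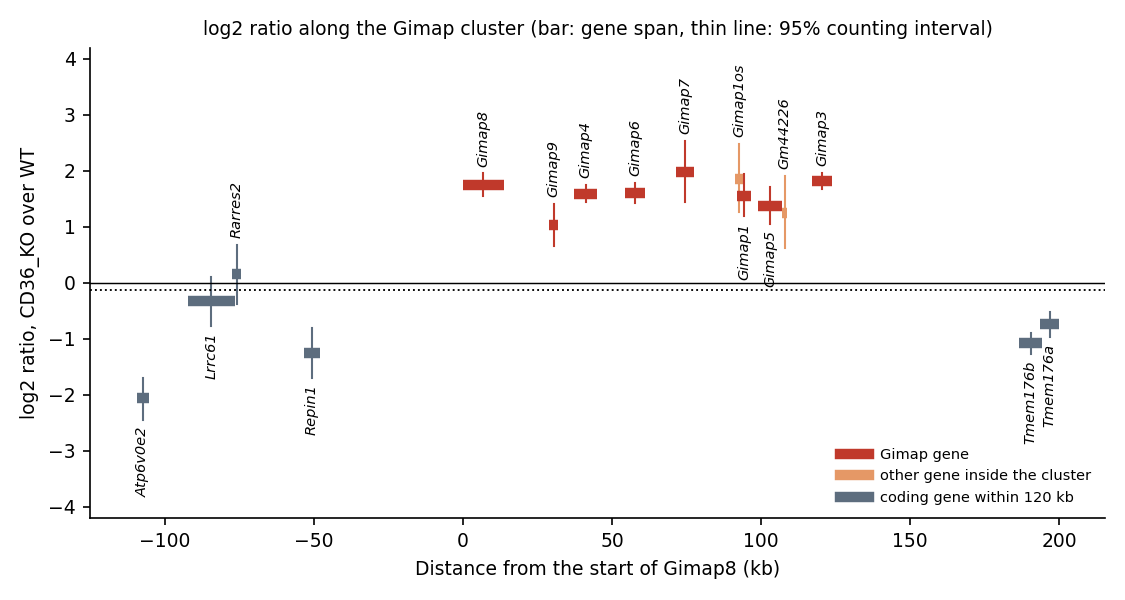
log2 ratio, CD36_KO over WT, of measured genes against distance from the start of Gimap8 in kb: Gimap genes in red, other genes inside the cluster in orange, coding genes within 120 kb in grey-blue. Bars span each gene and thin lines are 95% counting intervals. Genes inside lie above 1, and those outside lie between -2.07 and 0.15.

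As a description of the members, the promoter windows of RefSeq were searched on both strands for 6 motifs of lymphocyte transcription factors. A window has 300 bases, from 250 before to 50 after an annotated start (GRCm38.p6). All 8 genes matched the table, with 9 windows, as Gimap8 has 2. The ETS motif AGGAAGT was in 3 of the 9 windows, those of Gimap1, Gimap5 and Gimap9, against 9.35% of all 32851 windows. Their sequence is printed here from 75 bases before to 25 after the start, with the match in capitals. On the gene's strand it reads in reverse complement for Gimap9 and Gimap1, just after the start, and forward for Gimap5, 45 bases before it. They are at chr6:48676060-48676159 (Gimap9), chr6:48738972-48739071 (Gimap1) and chr6:48746122-48746221 (Gimap5), all on the plus strand.
Gimap9: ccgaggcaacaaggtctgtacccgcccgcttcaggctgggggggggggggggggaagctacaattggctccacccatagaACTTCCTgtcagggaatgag
Gimap1: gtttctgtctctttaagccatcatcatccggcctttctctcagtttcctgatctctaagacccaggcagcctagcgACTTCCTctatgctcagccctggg
Gimap5: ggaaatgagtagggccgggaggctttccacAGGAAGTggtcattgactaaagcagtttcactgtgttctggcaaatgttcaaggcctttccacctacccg

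These 3 genes had the 3 lowest ratios of the family in scaled CPM, an order seen only after the ratios were known and given as a description. The place of Gimap1 in it was not firm. At 1.56 (1.19 to 1.94), Gimap1 was close to Gimap4 (1.59) and Gimap6 (1.61). Without WT lane 3 it was above both, at 1.76 against 1.62 and 1.69. By log2(TPM + 0.1) it was again above both, at 2.28 against 2.17 and 2.22. The IKZF1 motif TGGGAA was in the window of 1 gene, Gimap3 (25.6% of all windows), and the E-box CACCTG in that of 1, Gimap9 (20.2%). The E-box CAGCTG (16.3%), the RUNX motif TGTGGTT (5.27%) and the TCF/LEF motif CTTTGAT (3.73%) were in 0 of the 8 genes' windows. A match describes letters in the window and is not a bound site. Only the exact letters given were searched, so a window without a match can hold another form of a motif. The windows of the family had a median GC content of 48%, against 52.7% over all windows.

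Genes whose products are known to work with Gimap proteins were listed by pathway. In scaled CPM, of 7 genes of the BCL2 family, whose members Gimap3 and Gimap5 have been found to bind, 0 were higher and 2 were lower. Bcl2l1, which encodes the survival protein Bcl-xL, was at -1.63 (757 and 289 counts), and Bak1, a pore-forming killer protein, at -1.0 (536 and 316 counts). Bcl2 itself had 643 and 1335 counts and a log2 ratio of 0.82 (0.68 to 0.95), under the threshold. These calls depended on the scale: by log2(TPM + 1), Bcl2 passed at 1.28, and Bcl2l1 (-0.76) and Bak1 (-0.46) did not. Mcl1 was at -0.14, Bax at -0.73, Bad at -0.58 and Bcl2l11 at 0.14.

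Of 5 genes of the ATG8 family of autophagy proteins, which include the Gimap6 partner Gabarapl2, 0 passed the threshold on either scale. Gabarapl2 was at -0.18 (-0.41 to 0.05) and Gabarap, the most abundant, at -0.68. For the kinase genes Gsk3a and Gsk3b and their target Ctnnb1, linked to Gimap5 in T cells, ratios were -0.26, -0.38 and -0.57. The calmodulin genes Calm2 and Calm3 were at -0.64 and -0.51. Of 5 genes of mTORC1 and the lysosome, 0 passed on either scale, with Rragc lowest at -0.78, Lamp1 at -0.58, Lamp2 at -0.58, Rptor at -0.30 and Mtor at -0.26. The medians of these lists ran from -0.68 to -0.38, against -0.13 over all genes and 1.60 for the Gimap genes. By log2(TPM + 1), the medians of the ATG8, GSK3 and calmodulin lists were above 0, at 0.01, 0.27 and 0.04, where all genes had 0.37. These partners are expressed in most cell types, so their values describe the whole sorted material.

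Over these 2 libraries, the likeness of another gene to the family can only be read from its ratio. In the same range of mean CPM there were 8298 measured protein-coding genes, a number that includes list genes and the Gimap genes. Leaving out these and genes named only by a number, the 5 nearest to the Gimap median of 1.60 were Xlr4b (1.60), Scml4 (1.61), Il18rap (1.60), S1pr4 (1.60) and Ifi209 (1.60).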

How the data were processed

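RNA-seq of 8 samples, 4 lanes of each of 2 libraries, was used. The tools named per the submitters' processing notes are kallisto and DESeq2, with build GRCm38.p6. Of versions, strand setting and annotation release, the sources used here give none. The deposited files give estimated counts per transcript, which are not normalized and need not be whole, and TPM, which the authors' kallisto run scaled for effective length and lane total. Estimated counts of 142351 transcripts were summed by gene and over lanes and rounded. TMM factors (edgeR 4.0.16, R 4.3.3) were 0.934 for WT and 1.071 for CD36_KO. Ratios carry exact Clopper-Pearson 95% intervals of the share of counts in 1 library, and ratios per list count carry conditional odds ratio intervals. No test across genes was run, with 1 library per genotype. DESeq2 1.42.0 size factors, total counts, TPM pseudocounts of 1 and 0.1, filters, coding transcripts and left-out lanes were alternatives.

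The rule for named genes took all 8 members, other genes within the cluster, its neighbours, Cd36, list members with the largest ratios or highest level, pathway lists by member, and the 5 genes nearest to the median ratio. Members and lists were chosen with earlier results of these data known. Gene positions and coding sequences came from GENCODE M21, in which 98.6% of gene identifiers were found, and promoters from RefSeq. Lrrc61, Rarres2 and Atp6v0e2 were named after their values were seen, as coding genes within 120 kb. Protein sequences were not analysed here, and values of a few list genes are not reported. The scaled ratio, its interval and the call were tested on simulated counts that held counting error only. The other steps were not tested in this way.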

Additional observations from a re-analysis of the deposited data

Results flagged for a closer look

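The level of Gimap7 in WT lane 3 was 1.30 TPM, while the other 3 WT lanes had 1.75 to 1.82 TPM. Its gap to the nearest lane was 0.866 of the range of the 4 lanes, above Dixon's 95% critical value for 4 values. It was the 1 such value among 32 sets of 4 lane values examined, and chance gives about 1 in 20. Each gene and library was examined in CPM and in TPM, so the sets are not independent. In scaled CPM the same lane was not flagged, at 2.96 against 3.85 to 4.29 in the other WT lanes. The lane held 7 counts of Gimap7 against 9 or 10 in the others.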

How the results depend on the processing

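For single members, 113 of 115 alternatives kept the direction and the side of the 2-fold threshold, and 0 reversed. The 2 that did not were those of Gimap9 without WT lane 2 (0.94) and without CD36_KO lane 2 (0.99). The median log2 ratio of the family, 1.60, became 1.80 with total counts, 2.06 with log2(TPM + 1), 2.25 with log2(TPM + 0.1) and 1.75 with coding transcripts only. The log2 ratio of the summed counts, 1.66, became 1.85, 2.18, 2.19 and 1.82 in the same order. Leaving out a lane gave medians of 1.59 to 1.73, sums of 1.65 to 1.74, 7 to 8 genes at least 2-fold higher and 0.945 to 0.972 Gimap counts per T cell list count. With a mean of at least 20 CPM, 5 genes were measured and 5 were higher. Adding Gm28053 and Gimap1os to the sum, an alternative chosen after seeing the data like the pooled pairs in the report, gave 1.66. Gimap counts per NK cell list count, 0.786-fold, turned to 1.25-fold without Gzma, also chosen after seeing the data. The change from TMM scaling to total counts moves every gene alike, and the median of all measured genes went from -0.13 to 0.06. The cause of the other shifts was not tested. No paired analysis was possible because each genotype is 1 library, so that lane numbers name parts of 1 preparation and no test was run. Depth limits Gimap7, with 36 WT counts, most.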
